A study of Mus musculus with 19 samples.

Results

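Mammary tissue of mice that lack an enhancer of the milk protein gene Csn1s2b (delCsn1s2b-E) was compared with wild-type tissue (WT) by total RNA-seq, with 3 libraries in each group. Both groups are labelled C57BL/6 and day 18 of pregnancy (p18), and the study's methods name the substrain C57BL/6N for its edited mice. Their labels and sequencing features set them apart, so 2 libraries of mice that lack the proximal enhancer of Csn3 (delCsn3-PE, C57BL/6, p18), which carry the same kind of labels as the delCsn1s2b-E libraries, served as a second reference. A gene was kept only if it differed from WT and from delCsn3-PE in the same direction, each at an adjusted p under 0.05 in edgeR's quasi-likelihood test. This held for 28 of 17123 genes tested, of which 27 were lower and 1 was higher in delCsn1s2b-E tissue.

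The label does not say which Csn1s2b enhancer was removed, and the text of the study does not describe the delCsn1s2b-E and delCsn3-PE lines. Edited mice were in general made in zygotes with CRISPR/Cas9 and used as homozygotes, and the sources used here do not give the number of founders behind a line. The extraction note of the 5 enhancer-line libraries speaks of wild-type tissue in lactation, which does not match their stage label, so that p18 is uncertain for them. The 28 genes are defined by comparison of labelled groups, and nothing in the labels ties the libraries to separate litters or days. p-values therefore measure the spread between these libraries.

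Caseins are the main proteins of milk, and their genes lie side by side on chromosome 5, where prolactin acting through STAT5 turns them on in the secretory epithelium. Of the 28 genes, 12 belong to a list of interferon-stimulated genes that was chosen with earlier results of these data known. Interferons bind cell surface receptors, JAK kinases phosphorylate STAT proteins such as STAT2, and complexes of these with IRF9 bind short GAAA-containing elements in front of interferon-stimulated genes, whose products recognise viral RNA, restrict virus growth or tune the response itself. A low level of this programme is present in healthy tissue in the absence of infection.

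Upstream sequences were examined because of these interferon-stimulated genes. RefSeq windows (GRCm38.p6) were at hand for 18 of the 28 genes and were not in the table for Oas2, Rtp4, Mx2, Mx1, Usp18, Dhx58, Ifi27l2a, Pyhin1, Ifi27 and Angptl4. The core of the interferon-stimulated response element, spelled GAAA, any 2 bases and GAAA (on the other strand TTTC, any 2 bases and TTTC), was searched on both strands in the 250 bases before the start of each gene. It was present in 10 of the 17 lower genes with a window (58.8%) and in 414 of the 12591 tested genes with one (3.29%). The STAT5 motif, TTC, any 3 bases and GAA, which reads the same on both strands, was present in 2 of the 17 (11.8%) and in 937 of the 12591 (7.44%). A match describes the letters of a window and not a bound site. The lower genes with a window but without a match of the first motif were Gm15446, Ifi44, Oasl2, Irf7, Xaf1, Lgals3bp and Jun. Ifi44, Oasl2 and Irf7 are on the list of interferon-stimulated genes, so a match does not separate these genes from the others. The windows below are those of Oas1a and Oas1g, which had no reads in any delCsn1s2b-E library, of Ifit1, Ifit3 and Stat2 as members of the interferon response on other chromosomes, and of Gm15446, which held no match. Each is printed in the direction of its gene and ends at the base before the start that RefSeq gives, with matches of the first motif in capitals.
Oas1a, chr5:120907526-120907775, minus strand: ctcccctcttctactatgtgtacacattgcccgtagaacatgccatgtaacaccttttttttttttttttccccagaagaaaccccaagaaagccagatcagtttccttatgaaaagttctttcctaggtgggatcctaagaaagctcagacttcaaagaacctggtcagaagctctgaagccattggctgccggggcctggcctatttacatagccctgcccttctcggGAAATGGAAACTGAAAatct
Oas1g, chr5:120887614-120887863, minus strand: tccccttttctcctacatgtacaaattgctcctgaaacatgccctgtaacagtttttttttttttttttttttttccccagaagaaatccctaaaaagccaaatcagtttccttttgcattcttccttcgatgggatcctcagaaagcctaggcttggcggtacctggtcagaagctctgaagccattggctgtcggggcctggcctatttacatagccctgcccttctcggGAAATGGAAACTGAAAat
Ifit1, chr19:34640639-34640888, plus strand: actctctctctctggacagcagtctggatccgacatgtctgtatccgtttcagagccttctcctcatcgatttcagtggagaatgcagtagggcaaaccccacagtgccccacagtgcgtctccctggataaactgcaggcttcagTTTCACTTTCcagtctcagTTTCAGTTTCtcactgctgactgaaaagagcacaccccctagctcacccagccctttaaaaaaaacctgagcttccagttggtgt
Ifit3, chr19:34583279-34583528, plus strand: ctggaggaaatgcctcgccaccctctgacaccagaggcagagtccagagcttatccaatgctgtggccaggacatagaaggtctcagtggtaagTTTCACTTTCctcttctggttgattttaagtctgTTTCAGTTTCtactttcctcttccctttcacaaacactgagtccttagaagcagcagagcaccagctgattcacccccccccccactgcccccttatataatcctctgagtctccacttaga
Stat2, chr10:128270248-128270497, plus strand: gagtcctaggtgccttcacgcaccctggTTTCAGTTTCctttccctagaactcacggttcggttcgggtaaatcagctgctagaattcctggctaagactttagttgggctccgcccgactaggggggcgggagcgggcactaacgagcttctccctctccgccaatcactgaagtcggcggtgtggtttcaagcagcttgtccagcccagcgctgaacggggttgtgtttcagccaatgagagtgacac
Gm15446, chr5:109933313-109933562, plus strand: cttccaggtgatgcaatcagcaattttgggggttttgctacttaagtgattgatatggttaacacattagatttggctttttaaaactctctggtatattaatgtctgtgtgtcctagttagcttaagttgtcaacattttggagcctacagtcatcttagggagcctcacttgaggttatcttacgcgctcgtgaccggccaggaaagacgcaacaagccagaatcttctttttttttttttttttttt
The RefSeq start of Gm15446 lies inside the span that the GENCODE annotation gives for the gene, so its window is not in front of that span. Windows of Ifit1, Ifi44, Irf7 and Lgals3bp, among others, run partly into the GENCODE span of their gene. In Oas1a and Oas1g, 2 overlapping matches formed 1 run that began 20 and 18 bases before the start. Ifit1 and Ifit3 held 2 separate matches each, on the other strand, and Stat2 held 1, which began 222 bases before the RefSeq start. GENCODE starts Stat2 at 128270559, beyond the end of its window, so the match lies farther from that start.

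Reads in genes without the ribosomal RNA precursor Rn45s and Lars2 were 9980142 to 12492954 in WT libraries, 26682203 to 28649639 in delCsn1s2b-E and 29687348 to 30273478 in delCsn3-PE. Rn45s took 29.7 to 33.4% of the reads of WT libraries and 0.0765 to 0.924% of those of the enhancer lines. Caseins, the defining transcripts of the secretory mammary gland, took 11.1 to 22.5% of the reads in these 8 libraries. Levels are given as CPM, read counts scaled by the library total and its TMM factor, unless another scale is named. Skeletal muscle transcripts varied widely within groups, with a summed level of the 16 muscle markers of 39.8 to 4880 CPM in WT, 22.1 to 108 in delCsn3-PE and 81.2 to 2210 in delCsn1s2b-E.

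Against WT, 5343 genes (31.2%) were called in delCsn1s2b-E tissue, 2642 higher and 2701 lower. The delCsn3-PE libraries differed from the same WT libraries at 4105 genes (24% of those tested), and 3501 of the 5343 genes were among them with the same direction. Without delCsn3-PE replicate 1 the delCsn3-PE libraries differed from WT at 1164 genes, and without replicate 2 at 2649. The comparison of delCsn1s2b-E with delCsn3-PE called 31 genes (0.181%), 2 higher (0.0117%) and 29 lower (0.169%), and 849 genes (4.96%) at an unadjusted p under 0.05. Requiring both comparisons left the 28 genes (0.164% of all genes tested), 27 lower (0.158%) and 1 higher (0.00584%). The comparisons share the delCsn1s2b-E libraries, so the count of 28 is a result of the rule and not a second test. The median log2 fold change over all genes was -0.04 against WT and -0.01 against delCsn3-PE. With library totals in place of TMM factors it was -0.35 and -0.01, and 312 genes were then higher and 3679 lower than in WT.

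**Figure D1:**
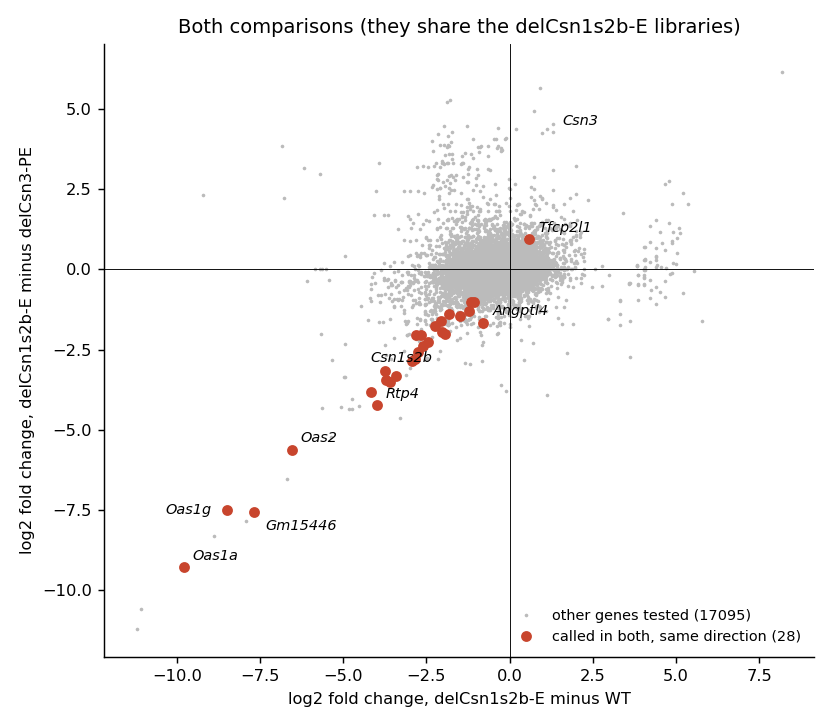
Log2 fold change of each of 17123 genes in delCsn1s2b-E tissue against WT (x axis) and against delCsn3-PE (y axis), which share the 3 delCsn1s2b-E libraries, so that points spread along the diagonal by construction. Red points are the 28 genes called in both, with Tfcp2l1 at 0.59 and 0.96 and the others below 0 on both axes, where Oas1a and Oas1g are fitted values over 0 reads.

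None of the 28 genes overlapped between the delCsn1s2b-E libraries and either other group. All 3 delCsn1s2b-E libraries lay below all 5 other libraries for 743 genes (4.34% of those tested), so that the absence of overlap alone is not particular to the lower genes. In bulk tissue, fewer cells of a type and less RNA per cell cannot be told apart.

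Oas1a, Oas1g, Oas2 and Oasl2 of the oligoadenylate synthetase family were lower in both comparisons. Enzymes of this family sense double-stranded RNA and make oligoadenylates that activate the ribonuclease RNase L. Oas1a (chr5:120896256-120907521) had 65, 72 and 64 reads in the WT libraries, 82 and 121 in delCsn3-PE and 0 in each of the 3 delCsn1s2b-E libraries, although these were sequenced more deeply than WT. With a floor of 3 counts per library, Oas1a was at least 44.1-fold lower than in WT and at least 30.6-fold lower than in delCsn3-PE, and it was called in both (edgeR adjusted p = 3.24e-05 and 0.000398). The floor covers counting error only.

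Oas1g (chr5:120876142-120887613), a near-identical neighbour of Oas1a, had 26, 27 and 29 reads in WT, 20 and 40 in delCsn3-PE and 0 in all 3 delCsn1s2b-E libraries (edgeR adjusted p = 2e-04 and 0.00686). It was therefore at least 17.9-fold below WT and at least 8.89-fold below delCsn3-PE. Reads may have been split between such paralogues in counting, so the separate values of Oas1a and Oas1g are uncertain. Oas2 (chr5:120730333-120749853) stood at 13, 5.94 and 8.66 CPM in WT, 3.98 and 5.62 in delCsn3-PE and 0.0365, 0.0853 and 0.159 in delCsn1s2b-E. Its level was 1.02% of WT and 1.95% of delCsn3-PE, with log2 fold changes of -6.55 (SE 0.47) and -5.62 (SE 0.49) and edgeR adjusted p of 3.24e-05 and 0.000735. Oasl2 (chr5:114896936-114912234), which encodes a related protein with a ubiquitin-like end, was at 15.5 to 22.7 CPM in WT, 9.75 and 17.3 in delCsn3-PE and 1.24 to 1.87 in delCsn1s2b-E (log2 fold changes -3.74 and -3.18).

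Of the 9 oligoadenylate synthetase genes tested, 7 were lower than in WT, 4 were lower than in delCsn3-PE and none was higher in either (15.8% and 0.169% of all genes were lower), with medians of -3.74 and -3.18 (-3.74 and -3.15 with genes at 0 set to their bound). This list was drawn up after the values were seen. Oas1b missed the threshold against delCsn3-PE (log2 fold change -2.17, edgeR adjusted p = 0.0539), as did Oas3 (-4.32, 0.0966) and Oasl1 (-2.68, 0.0539). Oas3 had a level of 0 CPM in 2 of the 3 delCsn1s2b-E libraries and 0.128 in the other, compared with 0.747 and 1.06 in delCsn3-PE. Oas1c and Oas1h were called in neither comparison.

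The genes next to the Oas cluster were not among the 28. Among 14 other tested genes within 500 kb, none was called against delCsn3-PE, with log2 fold changes of -0.51 to 0.37. Only 0.181% of all genes were called there, so the absence of a call says little for so few genes. Against WT, 12 of the 14 were called (31.2% of all genes), among them Rita1 (-1.36) and Ddx54 (-0.94), and these 2 genes stood at -1.14 and -0.81 in delCsn3-PE against WT.

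**Figure D2:**
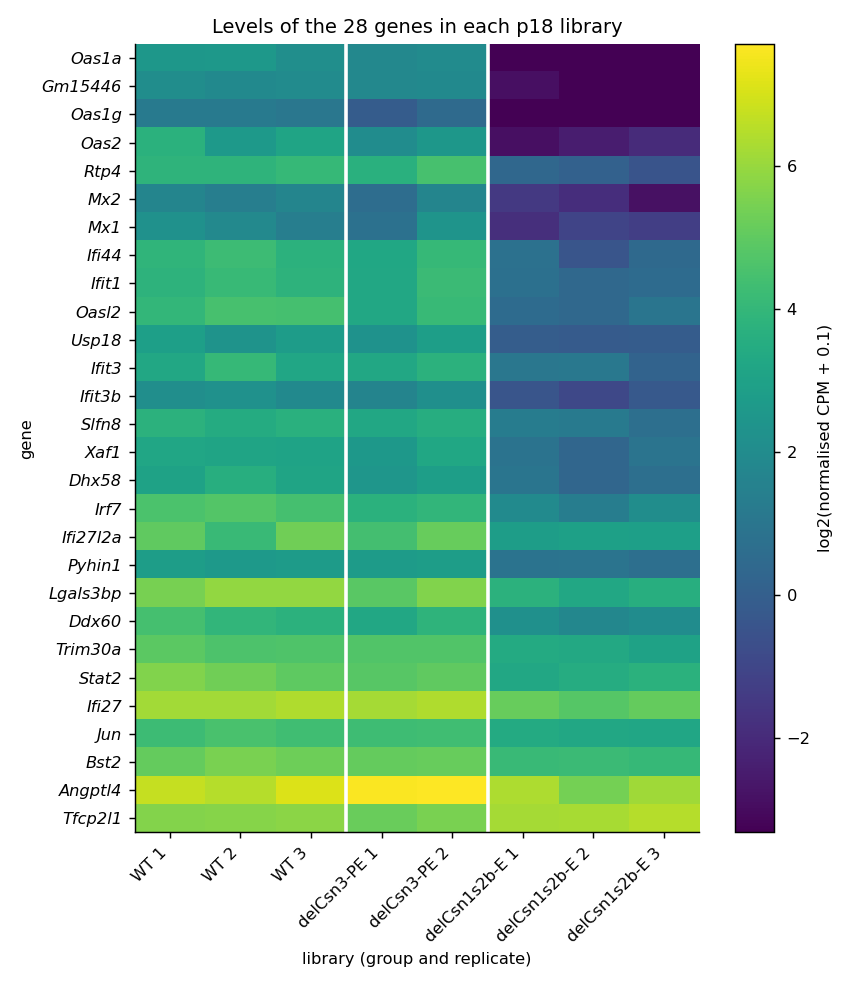
Level of each of the 28 genes in each of the 8 libraries, as log2(CPM + 0.1), with white lines between WT, delCsn3-PE and delCsn1s2b-E. Rows are ordered by the smaller of both absolute log2 fold changes, from Oas1a to Angptl4, with the 1 higher gene, Tfcp2l1, at the foot. The 3 right-hand columns are darker than the others in every row but the last.

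Other lower genes encode products that act on viruses or accompany that response. Rtp4, an interferon-induced chaperone-like protein, was at 14.1, 14.2 and 16.4 CPM in WT, 12.8 and 22.2 in delCsn3-PE and 1.17, 0.981 and 0.636 in delCsn1s2b-E, which was 6.23% of WT and 5.31% of delCsn3-PE. The log2 fold changes were -3.99 (SE 0.27) and -4.23 (SE 0.28), with edgeR adjusted p of 3.24e-05 and 0.000161. The highest delCsn1s2b-E library lay far below the lowest of the others.

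Ifit1, whose product binds foreign RNA ends, was at 14, 16.9 and 13.7 CPM in WT, 9.79 and 18.4 in delCsn3-PE and 1.57, 1.24 and 1.35 in delCsn1s2b-E (log2 fold changes -3.41, SE 0.26, and -3.34, SE 0.27, edgeR adjusted p = 3.62e-05 and 0.000398). The related genes Ifit3 (-2.83 and -2.79) and Ifit3b (-2.76 and -2.59) were lower as well and may share reads. Ifit2 of the same family was not called in either comparison (-0.78 and -1.23, edgeR adjusted p = 0.0528 and 0.291), with 12.3, 8.91 and 8.39 CPM in delCsn1s2b-E and 14.9 to 20.1 in WT. The dynamin-like GTPases Mx1 (-3.59 and -3.52) and Mx2 (-4.17 and -3.81) were low in all groups, at 1.45 to 5.14 CPM in the 5 reference libraries and 0.0398 to 0.384 CPM in delCsn1s2b-E.

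Ifi44 was at 13.6 to 18.7 CPM in WT, 9.29 and 16.6 in delCsn3-PE and 0.64 to 1.61 in delCsn1s2b-E (log2 fold changes -3.72 and -3.45). Slfn8, a member of the Schlafen family, was at 11 to 13.5 CPM in WT and 1.51 to 2.34 in delCsn1s2b-E (-2.61 and -2.38). Xaf1, which promotes cell death (-2.46 and -2.27), Trim30a (-1.50 and -1.46) and the tetherin gene Bst2, which holds budding viruses at the cell surface (-1.16 and -1.0), were reduced by less. Bst2 was at 16.7 to 18 CPM in delCsn1s2b-E and at 34.4 to 44.8 CPM in the 5 reference libraries, without overlap.

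Ifi27l2a (-2.03 and -1.95) and Ifi27 (-1.23 and -1.29) are paralogues. Ifi27 was at 71, 71.9 and 82.5 CPM in WT, 74 and 82.6 in delCsn3-PE and 35, 27.4 and 33.7 in delCsn1s2b-E, which was 42.6% of WT and 40.9% of delCsn3-PE. Lgals3bp, a secreted glycoprotein, was at 43 to 60.9 CPM in WT, 29.8 and 49.1 in delCsn3-PE and 9.76 to 13.3 in delCsn1s2b-E (-2.23 and -1.76).

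Sensors and regulators of the pathway were also among the lower genes. Irf7, a transcription factor that amplifies interferon production, was at 23.8, 26.6 and 21.7 CPM in WT, 13.2 and 15.4 in delCsn3-PE and 3.76, 2.43 and 4.14 in delCsn1s2b-E (log2 fold changes -2.80, SE 0.20, and -2.05, SE 0.21, edgeR adjusted p = 3.24e-05 and 0.00201). The delCsn3-PE libraries also lay below WT at Irf7, by -0.75 on the log2 scale (edgeR adjusted p = 0.028). Stat2, a transcription factor activated by the type I interferon receptor, was at 48.9, 40 and 31.3 CPM in WT, 28.1 and 32 in delCsn3-PE and 9.61, 11.4 and 13 in delCsn1s2b-E (-1.82 and -1.40, edgeR adjusted p = 0.000174 and 0.0165). Its level was 28.3% of WT and 37.8% of delCsn3-PE. Usp18, a protease that restrains signalling from the interferon receptor, was at 0.81 to 0.841 CPM in delCsn1s2b-E and at 4.85 to 7.29 in the other 5 libraries (-2.92 and -2.86).

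Helicases or sensors of nucleic acid completed this group, namely Dhx58 (-2.65 and -2.05), Ddx60 (-2.07 and -1.61) and Pyhin1 (-1.95 and -2.0). Pyhin1 was at 6.02 to 7.03 CPM in the 5 reference libraries and at 1.51 to 1.79 in delCsn1s2b-E, and its edgeR adjusted p was 0.000146 and 0.00152. The sensor genes Ifih1 (-0.03 and -0.37) and Ddx58 (-0.51 and -0.74) were called in neither comparison.

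Receptors and kinases of the pathway were not among the 28 genes. The receptor genes Ifnar1 (0.27 and 0.05) and Ifnar2 (0.18 and -0.16), the kinase gene Jak1 (0.22 and 0.09) and Mavs (-0.07 and 0.05), an adaptor of RNA sensors, were not called against either group. The kinase gene Tyk2 was lower than in WT (-0.80, edgeR adjusted p = 0.00213), as were the transcription factor genes Irf3 (-0.50, 0.0186) and Irf5 (-0.92, 0.00956), and none of these was called against delCsn3-PE (-0.20, -0.09 and -0.46). Irf9 was called against WT (-0.33, edgeR adjusted p = 0.047) and not against delCsn3-PE (-0.56, 0.211). Of 21 tested genes of type I interferon signalling, a list drawn up after the values were seen, 9 were lower and none higher than in WT, and 3 were lower than in delCsn3-PE, namely Stat2, Irf7 and Dhx58 (15.8% and 0.169% of all genes were lower). The medians were -0.30 and -0.37.

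A list of 20 interferon-stimulated genes was chosen with earlier results of these data known, so its counts are a description. Of the 20 genes, 16 were lower and none higher than in WT (15.8% of all genes tested were lower). Against delCsn3-PE, 12 were lower (0.169% of all genes were lower). The same 12 were lower in both, against 0.158% of all genes. The list medians were -3.45 and -2.83, and stayed at these values with Oas1a and Oas1g set to their bounds. The summed level of the list was 363 to 383 CPM in WT, 306 to 423 in delCsn3-PE and 172 to 197 in delCsn1s2b-E. The delCsn3-PE libraries had 2 of the 20 genes lower than WT and none higher, with a median of -0.22. List members outside the 28 genes included Ifit2, Rsad2, Ddx58, Cxcl10, Isg15, Oas3 and Oasl1. Of these, Isg15, a ubiquitin-like modifier, was at 0.292 to 0.477 CPM in delCsn1s2b-E, 2.06 to 5.1 in WT and 1.16 and 1.99 in delCsn3-PE, and was called against WT only (-3.48, edgeR adjusted p = 0.000576, and -2.14, 0.211).

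**Figure D3:**
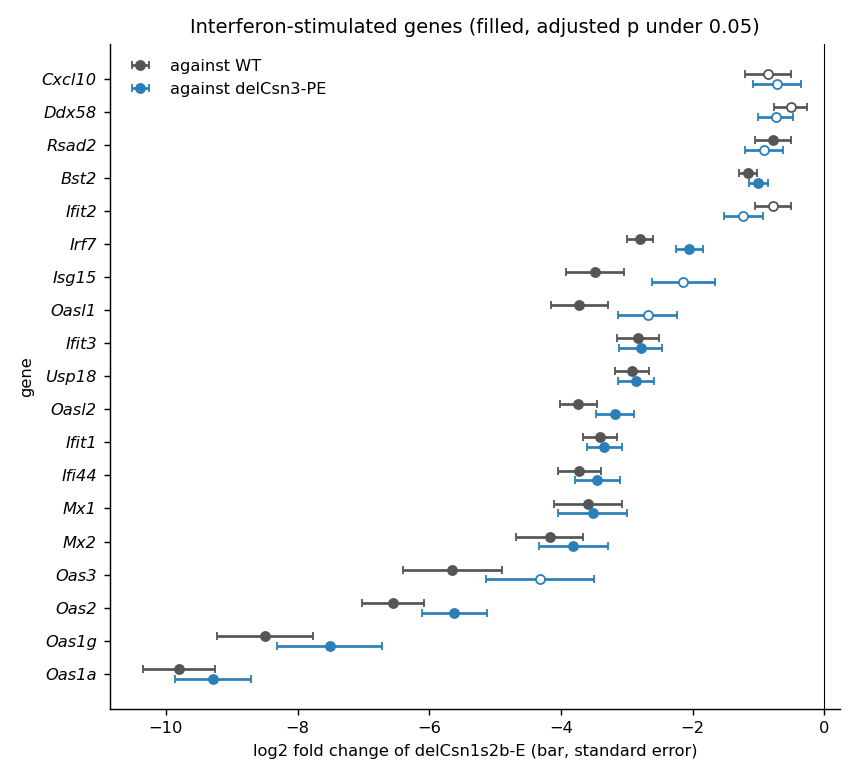
Log2 fold change with its standard error for 19 of the 20 interferon-stimulated genes in delCsn1s2b-E against WT (grey) and against delCsn3-PE (blue), which share the delCsn1s2b-E libraries, with filled symbols for an edgeR adjusted p under 0.05. All 19 genes lie left of 0 in both comparisons and 12 are filled in both, and the points of Oas1a and Oas1g are fitted values over 0 reads.

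Genes of antigen presentation, which interferons also induce, were not among the 28. Of 10 such genes, a list also drawn up after the values were seen, 5 were lower and 1 was higher than in WT (15.8% and 15.4% of all genes), and none was called against delCsn3-PE (medians -0.51 and -0.51). Psmb10 (-1.56 and -0.55) and Tap1 (-0.59 and -0.47) were lower than in WT, whereas B2m (0.75 and -0.59) was higher. In delCsn3-PE against WT, B2m stood at 1.34 and Psmb10 at -1.01 (edgeR adjusted p = 0.00112 and 0.00306). Against delCsn3-PE, the 10 genes ranged from -0.63 to -0.24, none of them called.

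Markers of the immune cells that could carry such transcripts were examined alongside. The 12 macrophage and monocyte markers summed to 529 to 674 CPM in WT, 583 to 643 in delCsn3-PE and 412 to 560 in delCsn1s2b-E. Of these, 5 of 12 were lower than in WT (15.8% of all genes) and none was called against delCsn3-PE. None of the 12 markers was at 0 throughout the delCsn1s2b-E libraries. The medians of the 12 were -0.40 and -0.37. The 8 T cell markers summed to 11.9 to 17 CPM in WT, 14.8 to 18.2 in delCsn3-PE and 13.7 to 16.8 in delCsn1s2b-E, with none called in either comparison. Plasma and B cell markers summed to 635 to 916, 1420 to 1750 and 1140 to 1460 CPM in WT, delCsn3-PE and delCsn1s2b-E, with 2 of 9 higher than in WT (15.4% of all genes) and 1 lower than in delCsn3-PE. The contribution of these cells to the interferon genes was not tested.

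The 28 genes were also examined in the other libraries of the series. WT and delSE tissue, which lacks a super-enhancer of the casein locus, at day 6 of pregnancy and delSE tissue at p18 were set beside the 8 libraries, as a step added after the data were seen. All 28 genes were also called, in the same direction, against the 4 delSE libraries at p18, where 41.2% of 17449 genes were called. That comparison again uses the delCsn1s2b-E libraries that selected the 28 genes, so it is not an independent test of them. Across all 19 libraries, 23 of the 27 lower genes were lower in every delCsn1s2b-E library than in any of the 16 others, as were 356 of all genes tested. Angptl4, Bst2, Gm15446 and Pyhin1 were the exceptions, and Tfcp2l1 was higher than in all 16. The 16 others include the WT and delCsn3-PE libraries at p18 by which the 28 genes were selected. The 23 of 27 is therefore partly a result of the rule and cannot be weighed against the 356. On the scale normalised over 19 libraries, Oas1a ranged from 3.21 to 8.25 CPM in the 16 others.

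**Figure D4:**
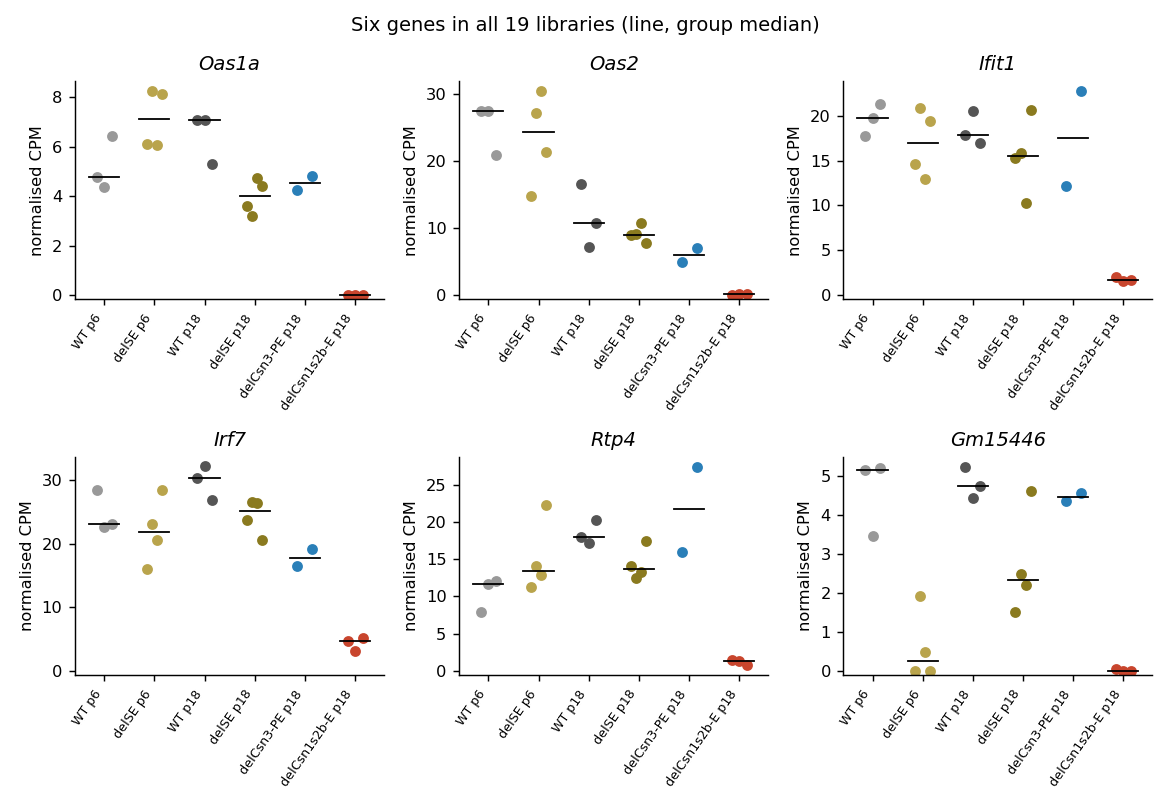
CPM normalised over all 19 libraries (y axis, linear from 0) for 6 of the 28 genes in each group, with a line at the median. Oas1a, Oas2, Ifit1, Irf7 and Rtp4 are lowest in the 3 delCsn1s2b-E libraries, whereas Gm15446 also reaches 0 in delSE libraries at p6.

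Not all of the 28 genes belong to the interferon response. Gm15446, a predicted gene on chromosome 5 (chr5:109923400-109943936), had 48, 45 and 57 reads in WT, 84 and 115 in delCsn3-PE and 1, 0 and 0 in delCsn1s2b-E (log2 fold changes -7.67, SE 0.51, and -7.56, SE 0.52, edgeR adjusted p = 3.08e-05 and 0.000161). On the scale normalised over 19 libraries, it was at 0, 1.92, 0.494 and 0 CPM in delSE tissue at p6, compared with 5.15, 3.47 and 5.19 in WT at p6. In delSE tissue at p18 it was at 1.5, 2.48, 2.2 and 4.62 CPM, the last within the WT range of 4.43 to 5.23 at p18. None of 15 other tested genes within 500 kb was called against delCsn3-PE (-0.69 to 0.45), where 0.181% of all genes were called. Gm15446 was outside the rule for named genes and was chosen after its values were seen.

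Jun, a subunit of the transcription factor AP-1, was at 19, 22.8 and 20 CPM in WT, 19.5 and 20.1 in delCsn3-PE and 10.7, 9.59 and 9.07 in delCsn1s2b-E (log2 fold changes -1.07, SE 0.14, and -1.01, SE 0.15, edgeR adjusted p = 0.000634 and 0.0233). Of the 14 immediate early genes, 4 were lower than in WT (15.8% of all genes) and Jun alone was also called against delCsn3-PE. Junb was at -2.82 against WT and -1.04 against delCsn3-PE (edgeR adjusted p = 3.24e-05 and 0.168). Angptl4, an inhibitor of lipoprotein lipase, was at 106, 89.2 and 137 CPM in WT, 196 and 208 in delCsn3-PE and 80, 42.6 and 69.2 in delCsn1s2b-E (-0.79, SE 0.22, and -1.66, SE 0.24, edgeR adjusted p = 0.0211 and 0.022). The highest delCsn1s2b-E library thus lay close to the lowest WT library. The delCsn3-PE libraries themselves lay above WT at Angptl4, by 0.86 on the log2 scale (edgeR adjusted p = 0.0274).

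Tfcp2l1, a transcription factor of epithelial cells, was the single gene above both groups, at 73.7, 75.5 and 88.8 CPM in delCsn1s2b-E, 50.6, 52.1 and 55.7 in WT and 36.7 and 45 in delCsn3-PE. It was 150% of WT and 194% of delCsn3-PE (log2 fold changes 0.59, SE 0.13, and 0.96, SE 0.14, edgeR adjusted p = 0.00623 and 0.0233). With library totals in place of TMM factors it was called in neither comparison (0.27 against WT, edgeR adjusted p = 0.325).

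Of the 28 genes, 27 have a position in the annotation used, on 13 chromosomes, and Pyhin1 has none. Chromosome 5, which carries the casein genes, held 5 of the 28 (17.9%, compared with 6.13% of tested genes with a position). These were Oas1a, Oas1g, Oas2, Oasl2 and Gm15446, 22.1 to 33.1 Mb from Csn1s2b. Oas1a, Oas1g and Oas2 lie in the same cluster, so the 5 genes are not separate positions and the share was not tested. Within 5 Mb of Csn1s2b (chr5:87808082-87824426), 54 genes were tested, and 18 were higher and 2 lower than in WT (15.4% and 15.8% of all genes). None was called in both comparisons, compared with 0.164% of all genes, so the absence of a call says little for so few genes. Csn3 and Jchain were the genes called there against delCsn3-PE, which lacks the Csn3 enhancer itself.

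Csn1s2b itself was not among the 28 genes. It was at 271, 82.1 and 53.8 CPM in WT, 272 and 146 in delCsn3-PE and 32.8, 59.1 and 43.8 in delCsn1s2b-E. The delCsn1s2b-E libraries overlapped WT and lay below both delCsn3-PE libraries, at 33.4% of WT and 21.7% of delCsn3-PE. The log2 fold change was -1.58 against WT (edgeR adjusted p = 0.0361) and -2.21 against delCsn3-PE (0.335), and in an exact two-sided permutation test p was 0.2 against either group and 0.0714 against both together, where the smallest possible values were 0.1, 0.2 and 0.0357. Without WT replicate 1, Csn1s2b was at 66.6% of WT and the log2 fold change was -0.59 (edgeR adjusted p = 0.206), while the adjusted p against delCsn3-PE was 0.0495. The call against WT was also lost without delCsn1s2b-E replicate 1 (edgeR adjusted p = 0.112) or 3 (0.0919), with DESeq2 (0.0781) and with the replicate block (-1.20, 0.0756). With 1 factor of unwanted variation, Csn1s2b was called against both groups (edgeR adjusted p = 0.00266 and 0.00427).

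Relative to its duplicated neighbour Csn1s2a within the same library, Csn1s2b was low in every delCsn1s2b-E library. There were 2331, 2021 and 1940 Csn1s2a reads per Csn1s2b read in delCsn1s2b-E, 155.5, 498.1 and 642.1 in WT and 443.1 and 457.4 in delCsn3-PE. The delCsn1s2b-E libraries did not overlap the others, and their geometric mean ratio was 5.24-fold higher than in the other 5 libraries (exact two-sided permutation p = 0.0357). That test pools WT and delCsn3-PE. The geometric mean was 5.69-fold higher than in WT (exact two-sided permutation p = 0.1) and 4.64-fold higher than in delCsn3-PE (0.2). Each of these p-values was the smallest possible. Csn1s2a itself was at 239% of WT and 100% of delCsn3-PE, so part of the difference from WT lies in Csn1s2a. The ratio does not depend on the scaling of libraries, and as duplicated genes the pair may share reads.

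Csn1s2a was at 76400 to 120000 CPM in delCsn1s2b-E, 34600 to 42100 in WT and 66700 and 120000 in delCsn3-PE, so that it was higher than in WT (1.26, edgeR adjusted p = 0.023) and at 0.00 (adjusted p = 1) against delCsn3-PE. Csn2 was called against WT (0.98, edgeR adjusted p = 0.0459) and not against delCsn3-PE (0.05), and Csn1s1 in neither. Csn3, at 15700 to 23800 CPM in delCsn1s2b-E and 6520 to 8400 in WT, narrowly missed the threshold against WT (1.30, edgeR adjusted p = 0.0523). In the delCsn3-PE libraries Csn3 was at 1600 and 330 CPM. These mice lack an enhancer of Csn3 itself, and the difference of 4.28 (edgeR adjusted p = 0.0187) was not read as one of delCsn1s2b-E.

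**Figure D5:**
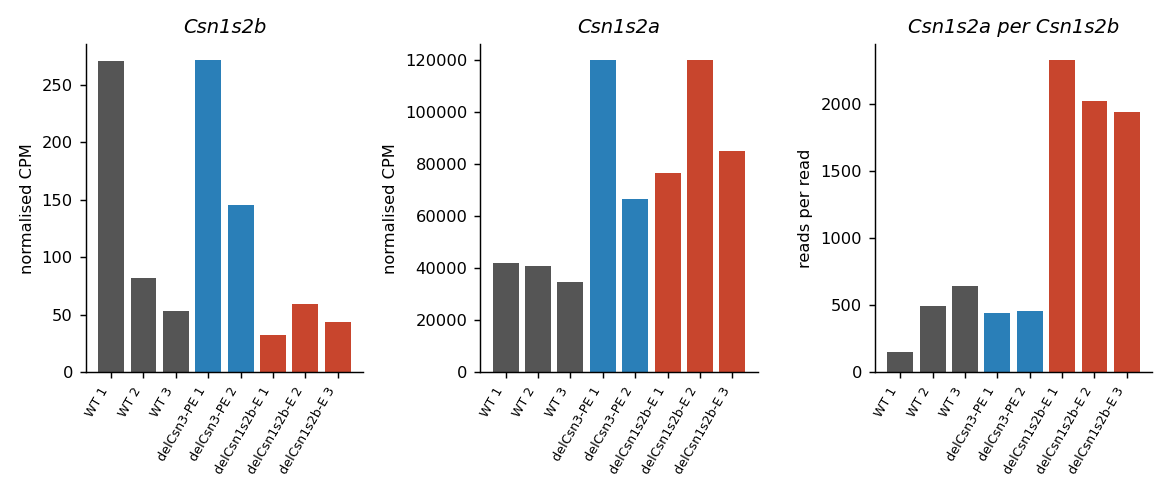
CPM of Csn1s2b and Csn1s2a and the number of Csn1s2a reads per Csn1s2b read in each of the 8 libraries (bars from 0, coloured by group). The ratio is 1940 to 2331 in the 3 delCsn1s2b-E libraries and 155.5 to 642.1 in the others, whereas the Csn1s2b levels of delCsn1s2b-E and WT overlap.

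None of the genes between and beside the caseins was called in the same direction in both comparisons (0.164% of all genes were). Of 10 tested, 5 were higher than in WT (15.4% of all genes), among them Utp3 (0.66), Grsf1 (0.77), Mob1b (0.50) and Dck (0.72). In delCsn3-PE, 4 of the 10 were higher than in WT (12.2% of all genes). Odam had 4 to 7 reads in delCsn1s2b-E and 0 to 3 elsewhere and was not called, Sult1d1 and Sult1e1 were not called, and Rufy3 (-0.06 and -0.13) and Slc4a4 (-0.22 and 0.12) were called in neither. The controls Cish (-0.18 and 0.34) and Krt18 (-0.09 and -0.30) were not called either. Jchain, which encodes the joining chain of secreted antibodies, was at 21.5, 8.02 and 15.6 CPM in delCsn1s2b-E, above WT (3.42 to 7.11) and below delCsn3-PE (76.1 and 110).

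Calls among the 28 genes differed in how many libraries they rested on. Oas1a, Gm15446, Oas2, Rtp4, Ifit1, Oasl2, Usp18, Slfn8 and Pyhin1 were called under all 20 alternative settings, and Ifi44, Ifit3, Xaf1, Irf7, Trim30a and Ifi27 under all but a fit of only the 2 groups compared. Leaving out 1 library ended the call of 12 genes, always against delCsn3-PE except for Angptl4, which also lost its call against WT without WT replicate 1 (edgeR adjusted p = 0.0503) or 3 (0.0815). Without delCsn3-PE replicate 2, these were Ifit3b, Dhx58, Lgals3bp, Mx1, Mx2, Stat2, Ddx60, Ifi27l2a, Bst2, Jun and Angptl4. Adjusted p then, or without another library, reached 0.0532 for Ifit3b and Dhx58, 0.0638 for Lgals3bp, 0.0973 for Mx2 and Stat2, 0.111 for Angptl4, 0.116 for Bst2, 0.149 for Jun, 0.169 for Mx1, Ddx60 and Ifi27l2a, and 0.247 for Tfcp2l1 without delCsn3-PE replicate 1. Their log2 fold changes kept their sign. Of these genes, all but Ifit3b also lost the call without some WT or delCsn1s2b-E library. Among the 20 alternative settings, Tfcp2l1 was called in both comparisons in 10, and Mx1, Ddx60, Jun and Bst2 in 11 each. Just inside the threshold, the larger adjusted p was 0.0233 for Ddx60, Jun, Mx1 and Tfcp2l1 and 0.0271 for Ifi27l2a. Just outside it lay Gbp3 (0.0502), Siglec1 (0.0503), Csn3 (0.0523), Oas1b, Oasl1 and Plac8 (0.0539), Mest (0.0566), Lgals9 (0.0752), Apol9a (0.0881) and Ly6a (0.0892), of which Csn3 and Mest were higher in delCsn1s2b-E and the others lower in the fitted values.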

How the data were processed

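Raw counts per gene were deposited for each library. Per the labels and the study's methods, the authors removed ribosomal RNA, made libraries with a stranded kit, trimmed reads with Trimmomatic, aligned them to mm10 with STAR and counted them with HTSeq, without normalisation (the strand setting is not given in the sources used here). Entries that name no gene, present in the enhancer-line files only (no feature 13.2 to 20.9%, ambiguous 0.672 to 0.821%, not unique 8.57 to 9.62%), and Rn45s and Lars2 were left out of library sizes and tests.

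Genes with at least 10 reads in total (17123) were tested by glmQLFit and glmQLFTest of edgeR (version 4.0.16, R version 4.3.3) with TMM factors, in 1 fit of the 8 libraries, without covariates, with Benjamini-Hochberg adjustment over all genes at 0.05. Single values were tested by exact two-sided permutation of log2 values, with the one-sided p doubled. Standard errors come from the F statistic. Replicates differed by more than sampling noise (chi-square of 13 to 126 per gene). Alternatives were DESeq2 (version 1.42.0), other scalings, filters, covariates and groups in the fit, thinned counts and leaving out each library. The test was run on simulated data. Positions are those of the GENCODE annotation of GRCm38, the assembly of mm10.

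The genes and lists were chosen with earlier results of these data known. Named genes were the casein genes, their neighbours, Cish, Krt18, the 12 largest differences in each direction among genes called in both comparisons, with at least 50 normalised counts and no overlap, predicted symbols left out, and up to 4 called members per list. The other 12 of the 28 genes were named after their values were seen. The values of 1 gene of the interferon list are not reported here.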

Additional observations from a re-analysis of the deposited data

How the results depend on the processing

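The count of genes called against delCsn3-PE (31) and in both comparisons (28) moved with the filter, the tool and the fit. It was 62 and 48 without a filter, 97 and 57 with DESeq2, 9 and 9 with only the 2 groups, 60 and 43 with all 4 groups at p18, and 51 and 43 with 1 factor of unwanted variation. All 28 genes were kept without a filter, with DESeq2 and with that factor, 27 with all 4 groups and 9 with only the 2 groups. Asking only for the same sign against delCsn3-PE left 3377 genes. At an absolute log2 fold change of at least 1, 1486 genes were called against WT and 1257 between delCsn3-PE and WT. With library totals alone, Csn1s1 was at 129% of WT, and 22 of the 28 genes were kept. The cause of these shifts was not tested.

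Leaving out 1 library gave 3579 to 5286 genes against WT, 21 to 31 against delCsn3-PE, 20 to 28 in both, and 1164 to 4003 between delCsn3-PE and WT. Csn1s2b then ranged from 25.7 to 66.6% of WT, the latter without WT replicate 1. A fit that leaves 1 delCsn3-PE library assumes that it varies like the other groups.

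With the replicate block, 3996 genes were called against WT, 26 against delCsn3-PE, 21 in both, all of them among the 28, and 1795 between delCsn3-PE and WT. The deviations of same-numbered WT and delCsn1s2b-E libraries correlated at 0.135, -0.0686 and 0.465, and those of delCsn1s2b-E and delCsn3-PE at -0.389 and -0.665, over 12054 genes. Deviations from the mean of so few libraries depend on each other, so these correlations cannot decide whether same-numbered libraries belong together. The block also ended the call of Csn1s2b against WT (adjusted p = 0.0756). None of the 28 genes changed its sign in either comparison under these alternatives. Genes that were not called did so, namely Csn1s1 and Csn2 against delCsn3-PE and Krt18 against WT. The balance of calls against WT, 2642 higher and 2701 lower, became 2950 and 2576 with Rn45s and Lars2 kept and 312 and 3679 with library totals, and that of delCsn3-PE against WT went from 2093 and 2012 to 1960 and 2081 with RLE size factors. Depth limits genes at a few reads, such as Oas1h, where differences were not detectable.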
